A study of Homo sapiens with 4 samples.

Results

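Prostaglandin E2 synthesis, breakdown and reception were followed through 8 genes in 4 RNA libraries of thyroid cancer cells. The genes, out of 58884 Ensembl gene IDs in the table, were chosen by name: the phospholipase PLA2G4A, the cyclooxygenases PTGS1 and PTGS2, the synthases PTGES and PTGES2, the degrading enzyme HPGD and the receptors PTGER2 and PTGER4. They were chosen with the large difference of PTGES between the cell lines already known, so differences between the lines are described for these genes and not tested. The cells were TPC-1 and B-CPAP, both established lines grown from human papillary thyroid carcinomas. Each line was kept at 37 °C or 40 °C, with 1 library for each line and temperature, and the labels name no genotype, transgene or drug for any group. The labels state the exposure as 15 min, 20 min and 24 h in different places, and its length is not settled here.

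Prostaglandin E2 (PGE2) is a lipid messenger of inflammation, pain and fever. Phospholipase A2 frees arachidonate from membranes, a cyclooxygenase turns it into the unstable intermediate PGH2, and a terminal synthase turns PGH2 into PGE2 or another prostanoid. PGE2 acts on the EP receptors at the cell surface and is inactivated by 15-hydroxyprostaglandin dehydrogenase. In fever it is made in and around brain vessels and acts on neurons of the hypothalamus.

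Expression is given as TPM, which is scaled by gene length and library total and can be compared between genes of 1 library. Each library held an estimated 20704375 to 24466515 reads. The thyroid transcription factor gene PAX8 stood at 98.9 to 284.4 TPM, whereas the iodide transporter gene SLC5A5 was listed at 0 in all 4 libraries. NKX2-1 was listed at 0 in both TPC-1 libraries and stood at 8.60 and 7.90 TPM in B-CPAP. Of the 6 epithelial markers, the keratin genes KRT8 and KRT18 reached 138.9 TPM or more in every library, whereas KRT19, EPCAM and the cadherin gene CDH1 did not pass 1.42, 1.99 and 0.0439 TPM. The keratin gene KRT7 differed widely between the lines, with 4.84 and 5.15 TPM (TPC-1) against 754.2 and 588.9 TPM (B-CPAP). The summed level of the 6 immune markers was 0.434 to 1.37 TPM and that of the 6 endothelial markers 1.31 to 2.36 TPM. The 6 fibroblast markers summed to 9.13 and 9.56 TPM in TPC-1 and to 38.0 and 46.7 TPM in B-CPAP.

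**Figure D1:**
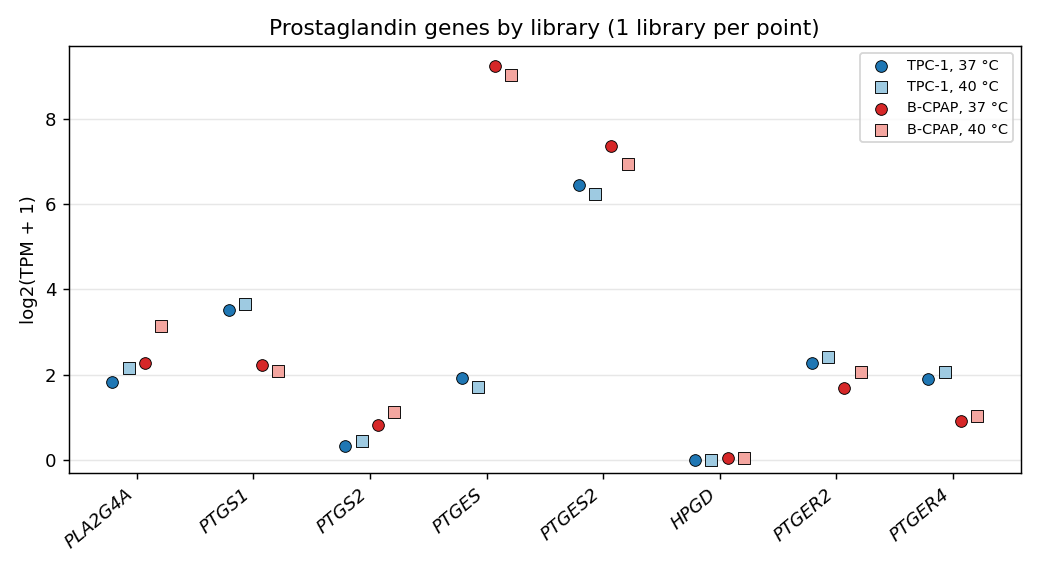
Level of the 8 genes as log2(TPM + 1) on the vertical axis, 1 point per library (circles 37 °C, squares 40 °C; blue TPC-1, red B-CPAP). PTGES stands at 606.9 and 518.9 TPM in B-CPAP against 2.80 and 2.29 TPM in TPC-1, and HPGD lies at or near 0 in all 4 libraries.

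In TPC-1 at 37 °C the order of levels was PTGES2, PTGS1, PTGER2, PTGES, PTGER4, PLA2G4A, PTGS2 and HPGD. The Poisson intervals of PTGER2, PTGES, PTGER4 and PLA2G4A overlapped there and at 40 °C, so that these 4 are not ordered beyond counting error. In B-CPAP at 37 °C the order was PTGES, PTGES2, PLA2G4A, PTGS1, PTGER2, PTGER4, PTGS2 and HPGD, with overlapping intervals for PLA2G4A and PTGS1 and for PTGER4 and PTGS2. At 40 °C PLA2G4A stood clear of PTGS1 in B-CPAP, and PTGS1 and PTGER2 overlapped, as did PTGS2 and PTGER4. Of the 6 genes that reached a mean of 1 TPM, 3 (PLA2G4A, PTGES, PTGES2) were higher in both B-CPAP libraries than in either TPC-1 library and 3 (PTGS1, PTGER2, PTGER4) lower, where 35.8% and 39.9% of all genes at that level were so placed. Nothing is read from this count, since the contrast chose the genes. In such bulk RNA, fewer cells that express a gene and less RNA per cell cannot be told apart.

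PTGES, the inducible microsomal PGE2 synthase, carried the largest contrast of the group. The TPC-1 libraries held 2.80 TPM (37 °C) and 2.29 TPM (40 °C), and those of B-CPAP 606.9 and 518.9 TPM. The TPC-1 values rested on 32 and 25 reads, with exact Poisson 95% intervals of 1.91 to 3.94 and 1.48 to 3.37 TPM that cover counting error only, and the B-CPAP values on 8587 and 6882 reads. The level in B-CPAP was 216.9 times that in TPC-1 at 37 °C and 226.7 times at 40 °C. Among 19945 protein-coding genes ordered by TPM, PTGES held place 168 in B-CPAP at 37 °C and 201 at 40 °C, against places 10091 and 10467 in TPC-1. By its mean log2 difference of 7.31 it was the gene at place 11 of 11824 tested protein-coding genes higher in B-CPAP. Most fibroblast markers moved with this difference: 4 of the 6 were listed at 0 in the 37 °C library of TPC-1 and 3 in its 40 °C library, and none was at 0 in B-CPAP. PDGFRB, the highest of the 6 in TPC-1, went the other way (6.19 and 6.72 TPM against 4.15 and 4.65 TPM in B-CPAP). KRT7 moved with PTGES too, as did KRT8 (168.0 and 138.9 TPM in TPC-1 against 569.8 and 431.0 TPM in B-CPAP) and the low EPCAM. KRT18 (283.1 and 235.9 TPM in TPC-1 against 234.5 and 183.5 TPM in B-CPAP) went the other way. So did KRT19 (1.42 and 0.963 TPM against 0.287 and 0.0612 TPM). The part of either list in the difference was not tested.

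The sequences just upstream of PTGES and PTGS2 are shown because PTGES was among the most abundant mRNAs of B-CPAP while PTGS2, the inducible enzyme one step before it, stayed near 1 TPM there. Both are from RefSeq on GRCh38.p14, 5′ to 3′ along the minus strand of the chromosome, up to the first base of the gene's exons in GENCODE 29. Capitals in PTGES mark GC boxes (GGGCGG, the motif of Sp1-type factors) and an EGR1 site (GCGTGGGCG). Capitals in PTGS2 mark an NF-kappaB-like motif, a C/EBP motif (TTNCGCAA), an E-box (CACATG or CACGTG) and a TATA box (TATAAA). Motifs were searched on both strands.
PTGES, chr9:129753048-129753292: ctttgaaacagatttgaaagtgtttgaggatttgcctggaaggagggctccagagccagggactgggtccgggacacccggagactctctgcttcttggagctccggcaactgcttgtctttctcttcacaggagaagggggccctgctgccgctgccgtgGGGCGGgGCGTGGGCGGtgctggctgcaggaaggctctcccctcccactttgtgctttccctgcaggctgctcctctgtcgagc
PTGS2, chr1:186680428-186680673: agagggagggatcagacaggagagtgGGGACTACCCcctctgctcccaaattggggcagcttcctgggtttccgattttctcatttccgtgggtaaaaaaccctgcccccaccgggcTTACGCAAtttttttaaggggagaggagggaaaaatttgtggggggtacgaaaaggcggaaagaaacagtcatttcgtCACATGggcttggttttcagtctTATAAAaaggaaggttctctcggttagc

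In PTGES the GC boxes began at -89 and -78 and the EGR1 motif at -82, counted from the RefSeq start, so that the EGR1 motif overlaps the second GC box. Of 35116 windows of 250 bases upstream of RefSeq starts, 42.6% held a GC box and 0.720% the EGR1 motif. The EGR1 motif was not particular to PTGES among the 8 genes: PTGES2 held it too, at -147 from one of its RefSeq starts. The PTGES window held no TATA box, which 10.7% of windows held. In PTGS2 the TATA box began at -32, the E-box at -55, the C/EBP motif at -133 and the NF-kappaB-like motif at -224. The shares of all windows with these motifs were 15.2% for the E-box, 0.752% for C/EBP and 19.7% for the NF-kappaB-like motif. Of the 8 genes, 6 had a GC box in at least 1 RefSeq start window, and none had a heat shock element of 3 units, found in 0.441% of windows. A match is a match of letters and shows no binding. EGR1, named here after its motif was seen, stood at 1.58 and 2.76 TPM in TPC-1 against 6.62 and 7.20 TPM in B-CPAP; CEBPD, a C/EBP factor gene, stood at 212.1 and 204.3 TPM in TPC-1 against 4.80 and 3.48 TPM in B-CPAP. CEBPB, another C/EBP factor gene, named for the same reason, went the other way, from 106.6 and 90.3 TPM (TPC-1) to 164.0 and 121.5 TPM (B-CPAP). Of the NF-kappaB genes, NFKB1 stood at 38.7 and 38.4 TPM in TPC-1 against 16.0 and 17.3 TPM in B-CPAP. RELA stood at 82.2 and 64.9 TPM against 75.9 and 58.6 TPM, so that the lines overlapped. Whether any of these factors acts on PTGES or PTGS2 here was not tested.

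PTGES lies on chromosome 9 (ENSG00000148344, chr9:129738331-129753047, minus strand, GRCh38, 4 exons after merging transcripts), and its neighbours did not share its contrast. Within 250 kb, 7 other protein-coding genes were tested. Their log2 differences between B-CPAP and TPC-1 ran from -1.90 for FNBP1 to 1.01 for NTMT1, with a median of 0.32, against -0.21 over the 485 tested protein-coding genes of chromosome 9 and -0.06 over all 11824. By limma with Benjamini-Hochberg adjustment, 4 of the 7 (NTMT1, C9orf78, ASB6 and TOR1A) were higher in B-CPAP, 2 (USP20 and FNBP1) lower, and TOR1B was not called; over all 14912 tested genes 29.9% were called higher and 32.8% lower (62.7% in either direction). The nearest tested gene on one side, TOR1B, stood at 74.2 and 71.2 TPM in TPC-1 against 71.5 and 77.8 TPM in B-CPAP. The nearest tested gene on the other side, ASB6, stood at 27.9 and 24.2 TPM and at 42.5 and 31.1 TPM. PTGES2 lies 1609869 bases from PTGES, and PTGS1 a further 5724990 bases away on the same chromosome, while PTGS2 and PLA2G4A are 148526 bases apart on chromosome 1.

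**Figure D2:**
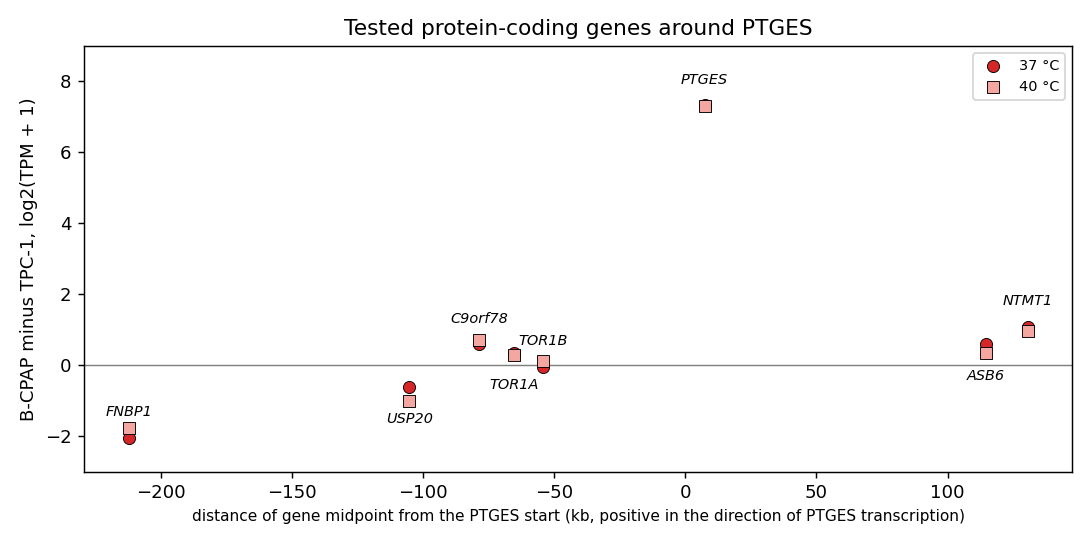
Log2(TPM + 1) difference of B-CPAP over TPC-1 (vertical axis) for PTGES and the 7 tested protein-coding genes within 250 kb, by distance of the gene's midpoint from the PTGES start in kb (horizontal axis); circles are the 37 °C libraries, squares the 40 °C libraries. The neighbours lie between -2.04 and 1.08 and PTGES at 7.32 and 7.30.

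The profile over the 4 libraries was closest to that of PTGES for 5 protein-coding genes, by Euclidean distance between log2(TPM + 1) values centred on each gene's mean. They were SLC38A5 (distance 0.23), an amino acid transporter gene, MAGEB2 (0.24), a cancer-testis antigen gene, TIMP3 (0.31), which encodes a metalloproteinase inhibitor, LCP1 (0.32), an actin-bundling protein gene, and CRABP1 (0.33), which encodes a retinoic acid binding protein. All 5 were at or below 0.50 TPM in TPC-1 and between 147.4 and 268.9 TPM in B-CPAP. With 4 libraries of 2 lines, likeness here is little more than a like difference between the lines.

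PTGES2, the second membrane-associated PGE2 synthase, was expressed in both lines and varied far less. It stood at 86.7 and 74.1 TPM in TPC-1 against 162.5 and 121.3 TPM in B-CPAP (ENSG00000148334, chr9:128120693-128128462). All values in B-CPAP lay above those in TPC-1, at 1.87 times at 37 °C and 1.64 times at 40 °C. Within TPC-1 PTGES2 mRNA was 31.0 times as abundant as PTGES at 37 °C and 32.4 times at 40 °C. In B-CPAP the order was turned, with PTGES at 3.74 and 4.28 times PTGES2. PTGES3, the cytosolic PGE2 synthase that also serves HSP90 as the co-chaperone p23, stood at 371.6 and 437.4 TPM in TPC-1 against 353.1 and 462.6 TPM in B-CPAP, so that the lines overlapped. PTGES made up 0.607% and 0.445% of the summed TPM of these 3 synthase genes in TPC-1 and 54.1% and 47.1% in B-CPAP.

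The other enzymes that consume PGH2 showed the reverse order for prostacyclin. PTGIS, the prostacyclin synthase gene, stood at 203.6 and 218.4 TPM in TPC-1 against 29.4 and 24.5 TPM in B-CPAP (limma log2 difference -2.93, adjusted p = 7.31e-05, lower in both temperatures' B-CPAP libraries). In TPC-1 it exceeded PTGES 72.7 times at 37 °C and 95.5 times at 40 °C, whereas in B-CPAP PTGES exceeded it 20.7 and 21.2 times. TBXAS1, the thromboxane synthase gene, chosen after its values were seen, stood at 0.870 and 0.911 TPM in TPC-1 against 2.39 and 2.46 TPM in B-CPAP. The prostaglandin D2 synthase genes PTGDS and HPGDS, also chosen afterwards, did not pass 0.244 TPM. AKR1C3, an aldo-keto reductase gene of prostaglandin F synthesis, was lower in B-CPAP (2.57 and 3.22 TPM against 38.2 and 39.4 TPM; limma log2 difference -3.36, adjusted p = 7.87e-05), and its relative AKR1B1 stood at 939.6 and 792.3 TPM in TPC-1 against 950.2 and 809.9 TPM in B-CPAP. Of the 10 tested genes of this list, which holds the prostanoid synthases and reductases outside the 8 and the MGST genes, relatives of PTGES, limma called 3 higher and 5 lower in B-CPAP. Over all tested genes 29.9% were called higher and 32.8% lower.

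**Figure D3:**
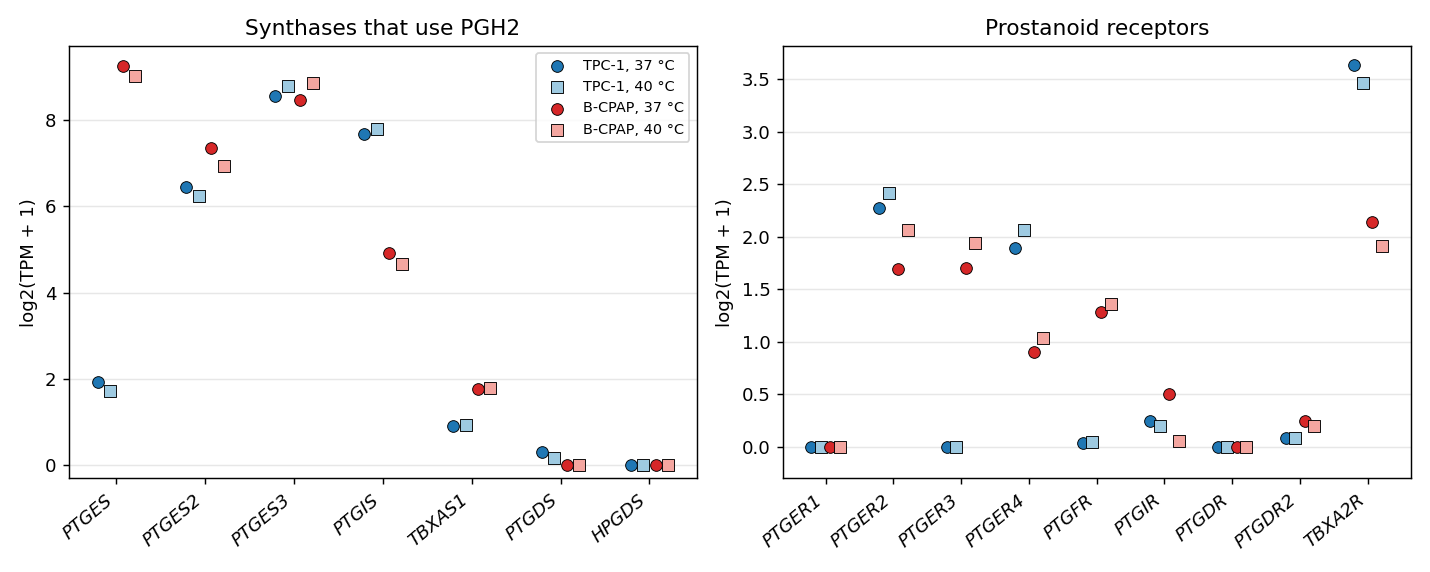
Levels as log2(TPM + 1), 1 point per library (circles 37 °C, squares 40 °C; blue TPC-1, red B-CPAP), of 7 synthase genes that use PGH2 (left) and of 9 prostanoid receptor genes (right). PTGES and PTGIS change places between the lines, and PTGER3 and PTGFR are at or near 0 in TPC-1 and above 1 TPM in B-CPAP.

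Both cyclooxygenase genes were low next to PTGES2 in every library. PTGS1, the constitutive cyclooxygenase gene (ENSG00000095303, chr9:122370530-122395703), stood at 10.5 and 11.5 TPM in TPC-1 against 3.71 and 3.21 TPM in B-CPAP, so that TPC-1 held 2.83 times the B-CPAP level at 37 °C and 3.59 times at 40 °C. PTGS2, the inducible cyclooxygenase gene (ENSG00000073756, chr1:186671791-186680427), stood at 0.251 and 0.362 TPM in TPC-1 from 8 and 11 reads and at 0.764 and 1.19 TPM in B-CPAP from 30 and 44 reads. PTGS2 was therefore the higher in B-CPAP and PTGS1 the higher in TPC-1, with no overlap of the lines' values in either. The Poisson intervals of PTGS2 in TPC-1 at 40 °C (0.180 to 0.647 TPM) and B-CPAP at 37 °C (0.515 to 1.09 TPM) overlapped. PTGS1 exceeded PTGS2 in every library, by 41.8 and 31.9 times in TPC-1 and by 4.85 and 2.69 times in B-CPAP. Both together came to 10.7 and 11.9 TPM in TPC-1 and to 4.47 and 4.41 TPM in B-CPAP. PTGES mRNA was 0.260 and 0.193 times this sum in TPC-1 and 135.8 and 117.7 times in B-CPAP.

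PLA2G4A, the gene of the calcium-dependent cytosolic phospholipase A2 that frees arachidonate (ENSG00000116711, chr1:186828953-186988981), stood at 2.53 and 3.43 TPM in TPC-1 against 3.86 and 7.80 TPM in B-CPAP. The lines did not overlap, although TPC-1 at 40 °C and B-CPAP at 37 °C lay within each other's Poisson intervals (2.60 to 4.45 and 3.08 to 4.80 TPM). Of 16 other genes of arachidonate release and reuse, 10 were tested. Limma called 1 higher and 4 lower in B-CPAP, against 29.9% and 32.8% of all tested genes. The higher one was PLA2G3, a secreted phospholipase gene, listed at 0 in TPC-1 while B-CPAP held 2.94 and 2.97 TPM, at least 16.0-fold and 15.4-fold higher against a floor of 3 reads per library. It was admitted to the test through B-CPAP alone, so that its call is no support for a difference. MGLL, the monoacylglycerol lipase gene, was lower in B-CPAP (41.8 and 34.0 TPM against 91.2 and 85.6 TPM; limma log2 difference -1.21, adjusted p = 0.000522). DAGLB, a diacylglycerol lipase gene, was lower as well (23.2 and 18.6 TPM against 50.6 and 45.5 TPM; log2 difference -1.17, adjusted p = 0.000713). PLAA, a phospholipase A2 activating protein gene, was not called (31.5 and 34.0 TPM in TPC-1 against 26.5 and 40.9 TPM in B-CPAP).

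HPGD, the gene of the dehydrogenase that inactivates PGE2 (ENSG00000164120, chr4:174490177-174523154), was not detected in TPC-1 and gave 1 read in each B-CPAP library. A floor of 3 reads corresponds to 0.0897 TPM in TPC-1 at 37 °C and 0.0939 TPM at 40 °C, and the exact Poisson upper limits of a count of 0 are 0.110 and 0.115 TPM. The B-CPAP values of 0.0242 and 0.0258 TPM were below their own floors of 0.0727 and 0.0776 TPM, so no fold is given. Of the 8 other genes of breakdown and transport, 6 were tested. Limma called 0 higher and 4 lower in B-CPAP, against 29.9% and 32.8% of all tested genes. SLCO4A1, an organic anion carrier gene, was the furthest apart (149.3 and 130.7 TPM in TPC-1 against 10.2 and 6.23 TPM in B-CPAP; log2 difference -3.96, adjusted p = 5.98e-05). ABCC4, the gene of a pump that exports prostaglandins, stood at 34.1 and 33.9 TPM in TPC-1 against 9.21 and 13.3 TPM in B-CPAP (log2 difference -1.54, adjusted p = 0.00101). PTGR1, a prostaglandin reductase gene, stood at 60.9 and 68.8 TPM in TPC-1 against 58.3 and 68.2 TPM in B-CPAP and was not called, and CBR3, a carbonyl reductase gene, was lower in B-CPAP (16.2 and 14.5 TPM against 30.7 and 32.8 TPM).

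Both Gs-coupled PGE2 receptor genes were low and stood higher in TPC-1. PTGER2, which encodes EP2 (ENSG00000125384, chr14:52314305-52328606), stood at 3.82 and 4.35 TPM in TPC-1 against 2.23 and 3.19 TPM in B-CPAP. PTGER4, which encodes EP4 (ENSG00000171522, chr5:40679498-40693735), stood at 2.71 and 3.17 TPM in TPC-1 against 0.870 and 1.05 TPM in B-CPAP. The lines did not overlap for either gene, and TPC-1 held 3.11 and 3.03 times the B-CPAP level of PTGER4 and 1.72 and 1.37 times that of PTGER2. The Poisson intervals of PTGER2 at 40 °C, 3.33 to 5.56 TPM in TPC-1 and 2.40 to 4.14 TPM in B-CPAP, overlapped. The value of PTGER2 was 1.37 to 3.04 times that of PTGER4, and their Poisson intervals overlapped in both TPC-1 libraries but not in those of B-CPAP.

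Of the remaining EP receptor genes, PTGER1 was listed at 0 throughout. PTGER3, the gene of EP3, the receptor through which PGE2 acts in fever, was listed at 0 in both TPC-1 libraries and stood at 2.25 and 2.83 TPM in B-CPAP, from 162 and 191 reads, at least 43.8-fold and 52.6-fold higher against a floor of 3 reads per library. It reached the mean of 1 TPM needed for a test through B-CPAP alone, so its call as higher there is given no weight. PTGFR, the prostaglandin F receptor gene, was below the level needed for a test and is named after its values were seen, at 0.0287 and 0.0300 TPM in TPC-1 against 1.44 and 1.56 TPM in B-CPAP. TBXA2R, the thromboxane receptor gene, was lower in B-CPAP (3.41 and 2.76 TPM against 11.4 and 10.0 TPM; log2 difference -1.52, adjusted p = 0.000992). PTGFRN, which encodes a regulator of the F receptor, was lower too (11.5 and 16.0 TPM against 79.7 and 76.5 TPM; log2 difference -2.44, adjusted p = 0.000241).

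More genes around the pathway were called lower than higher in B-CPAP. Over 7 lists of 95 such genes, 67 were tested, and limma called 13 (19.4%) higher and 32 (47.8%) lower in B-CPAP, against 29.9% and 32.8% of all tested genes; nothing particular to the lists is read from this. Of the 13, PLA2G3, PTGER3 and TBXAS1 reached the filter through B-CPAP alone, and of the 32, FOS through TPC-1 alone. Their median log2 difference was -0.44, against -0.05 for all tested genes. Each p-value sets the difference against a spread that limma draws towards a trend over all tested genes. The gene's own part of that spread has 1 residual degree of freedom. It is how far the temperature difference varied between lines. In it a true difference between the lines' responses cannot be told apart from variation between single cultures or libraries. No group had a repeat culture to measure the latter. With 1 library left out in turn and no block in the fit, 3 to 8 were called higher and 10 to 28 lower.

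Among the 18 tested regulators of PTGS2 and PTGES, 5 were called higher and 9 lower in B-CPAP. For this list and those below, the shares over all tested genes were 29.9% higher and 32.8% lower. HIF1A, a hypoxia factor gene, was higher (177.0 and 317.9 TPM against 104.5 and 120.8 TPM). The tumour necrosis factor receptor gene TNFRSF1A (143.2 and 121.4 TPM against 393.4 and 335.4 TPM), the mRNA decay factor gene ZFP36L1 (128.8 and 136.1 TPM against 276.5 and 284.0 TPM) and the transcription factor gene NFATC1 (2.02 and 1.47 TPM against 14.4 and 13.5 TPM) were lower, as was CEBPD (log2 difference -5.36, limma adjusted p = 2.54e-05). Of 15 tested genes of the cyclic AMP arm behind EP2 and EP4, 3 were higher and 6 lower. GNAS, which encodes the Gs alpha subunit, was lower (209.2 and 200.9 TPM against 302.4 and 295.0 TPM), and so was the beta-arrestin gene ARRB1 (12.6 and 11.3 TPM against 36.9 and 34.3 TPM), while the receptor kinase gene GRK5 was higher (5.46 and 6.11 TPM against 1.84 and 1.85 TPM). The protein kinase A genes PRKACA (71.5 to 87.8 TPM) and PRKAR1A (45.2 to 73.5 TPM) were not called. Of the 13 genes of the lipoxygenase branch, which competes for arachidonate, 5 were tested, 0 were called higher and 2, LTA4H (17.7 and 21.6 TPM against 33.2 and 32.0 TPM) and LTB4R (log2 difference -0.83), lower; ALOX12 was not called, and ALOX5, chosen after its values were seen, was listed at 0 in all 4 libraries.

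Between temperatures PLA2G4A in B-CPAP was the furthest apart of the 8 genes among those with more than 1 read, at 2.02 times its 37 °C level. Of the 6 that reached a mean of 1 TPM and were tested (PTGS2 and HPGD did not), limma with the line as a block called 0, as it called 0 of all 14912 tested genes (0%). At an unadjusted p under 0.05 stood PLA2G4A, higher at 40 °C, and PTGES2, lower, which is 2 of 6 against 19.5% of all tested genes (11.9% higher, 7.6% lower). None of the 6 was 2-fold apart on the log2(TPM + 1) scale in either line, where 2.25% of tested genes were 2-fold higher and 1.23% lower in TPC-1, and 2.78% and 1.13% in B-CPAP. Of the 6, 3 were higher in both lines, 2 lower in both and 1 went opposite ways, against 41.6%, 27.1% and 26.5% of all tested genes. With 1 library per line and temperature, differences within a line have no replicate check. Of 5 heat shock genes read as a check of the temperature labels, 4 were higher at 40 °C in each line. They ran from HSPA1B (ratios 1.15 in TPC-1 and 1.04 in B-CPAP) to HSP90AA1 (1.29 and 1.62) and HSPE1 (1.40 and 1.37). DNAJB1 was lower in both lines (0.890 and 0.883).

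**Figure D4:**
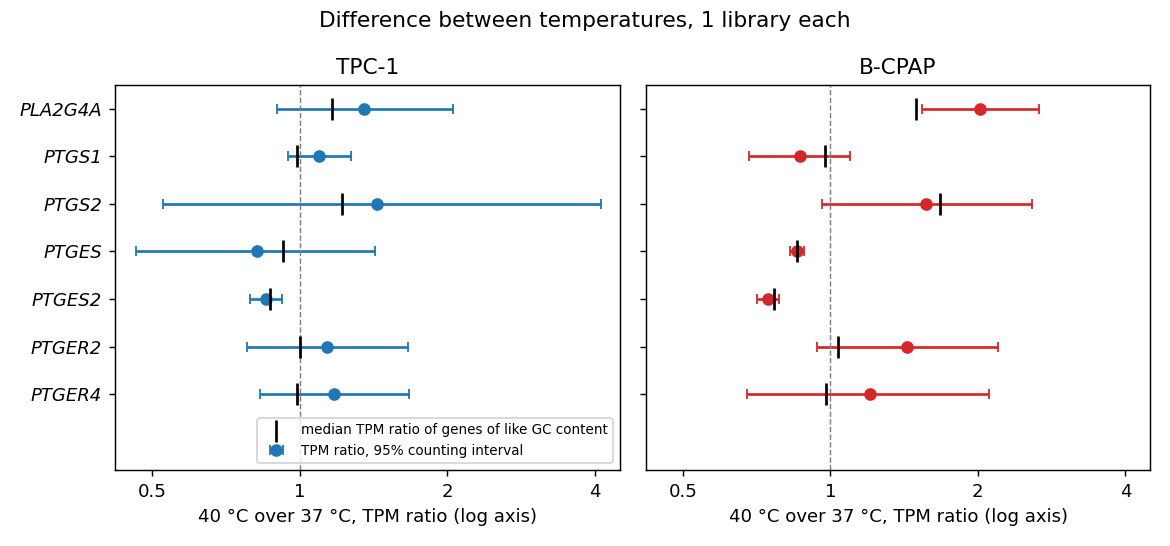
TPM ratio of 40 °C over 37 °C on a log axis for 7 of the 8 genes in TPC-1 (left) and B-CPAP (right); points are ratios of 1 library over another, bars exact 95% intervals for counting error alone, and black ticks the median ratio of tested protein-coding genes within 2 percentage points of the gene's GC content. In B-CPAP the interval of PLA2G4A lies above 1 and those of PTGES and PTGES2 below 1; HPGD is left out for want of reads.

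PLA2G4A in B-CPAP had the largest ratio between temperatures of the 8 genes. Its level rose from 3.86 to 7.80 TPM between the B-CPAP libraries (83 and 157 reads; ratio 2.02, exact binomial interval 1.54 to 2.67) and was 2.53 and 3.43 TPM in TPC-1 (44 and 57 reads; ratio 1.36, interval 0.899 to 2.06). Over both lines limma gave a log2 difference of 0.59 with an adjusted p of 0.243, higher in 2 of 2 lines. Differences between temperatures ran with the GC content of transcripts, and PLA2G4A mRNA is low in GC (39.0%). For the 1864 tested protein-coding genes of like GC content the median ratio was 1.16 (TPC-1) and 1.49 (B-CPAP). In B-CPAP their 10th and 90th percentiles were 1.18 and 2.04, and PLA2G4A lay between them. After adjustment for GC content the difference of PLA2G4A was 0.34 over both lines (limma adjusted p = 0.572), 0.18 in TPC-1 alone and 0.50 in B-CPAP alone (log2). In a fit of the 11824 protein-coding genes, added after the values were known, limma called PLA2G4A higher (adjusted p = 0.0451). Its difference was 0.10 without the 40 °C library of B-CPAP and 1.09 without the 40 °C library of TPC-1, in fits with no block (log2). Such fits mix the line difference of PLA2G4A into that of temperature.

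PTGES2 was lower at 40 °C in both lines, with counting intervals below 1 in both. The ratio was 0.855 in TPC-1 (interval 0.794 to 0.921) and 0.747 in B-CPAP (interval 0.710 to 0.785), and limma gave a log2 difference of -0.32 (adjusted p = 0.221). At 65.2% GC it is the richest in GC of the 8, and the 570 genes of like GC content had median ratios of 0.871 and 0.768. It was called lower when genes with a mean of at least 5 TPM were fitted (adjusted p = 0.0482) and when protein-coding genes alone were (adjusted p = 0.0331). PTGES had ratios of 0.818 in TPC-1 (interval 0.465 to 1.42) and 0.855 in B-CPAP (interval 0.828 to 0.883), with a limma log2 difference of -0.22 (adjusted p = 0.286). The 1464 genes of like GC content (56.9% for PTGES) had median ratios of 0.924 and 0.856, so PTGES in B-CPAP stood at the level of its GC class. After adjustment for GC content the differences of PTGES2 turned to 0.00983 (TPC-1) and 0.12 (B-CPAP), and that of PTGES in B-CPAP to 0.03 (log2).

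For PTGS1, PTGS2, PTGER2 and PTGER4 the counting intervals included 1 in both lines. PTGS1 had ratios of 1.10 in TPC-1 (interval 0.949 to 1.27) and 0.867 in B-CPAP (interval 0.682 to 1.10). PTGS2 had ratios of 1.44 (interval 0.527 to 4.12) and 1.56 (interval 0.962 to 2.58), and genes of its low GC content (35.8%) had medians of 1.22 and 1.67. Adjusted for GC content, the log2 differences of PTGS2 were -0.08 and -0.15. PTGER2 had ratios of 1.14 (interval 0.782 to 1.66) and 1.43 (interval 0.938 to 2.20), and PTGER4 of 1.17 (interval 0.830 to 1.67) and 1.21 (interval 0.676 to 2.10); genes of like GC content had medians of 0.980 to 1.04 for both. Counting intervals lay above 1 for 0 of the 6 tested members (TPC-1) and 1 (B-CPAP), and below 1 for 1 and 2, where 21.5% and 36.4% of all tested genes lay above and 16% and 21.8% below.

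Of the 67 other pathway genes tested, limma called 0 between temperatures, and 10 (14.9%) had an unadjusted p under 0.05, 4 higher and 6 lower at 40 °C. Over all 14912 tested genes limma called 0, and 19.5% had such an unadjusted p (11.9% higher, 7.6% lower). Nothing particular to the lists is read from this count. PTGES3 was 1.18 times as high at 40 °C in TPC-1 (interval 1.14 to 1.21) and 1.31 times in B-CPAP (interval 1.27 to 1.35), and HIF1A 1.16 times (interval 1.10 to 1.21) and 1.80 times (interval 1.74 to 1.85). None of the 67 was set against a GC class of its own. HIF1A mRNA is low in GC (38.7%), near PLA2G4A. The GC class of PLA2G4A had median ratios of 1.16 (TPC-1) and 1.49 (B-CPAP), with a 90th percentile of 2.04 in B-CPAP. AKR1B1 was lower, at ratios of 0.843 (interval 0.826 to 0.861) and 0.852 (interval 0.837 to 0.868). PTGIS had a ratio of 1.07 in TPC-1 (interval 1.04 to 1.11) and 0.834 in B-CPAP (interval 0.766 to 0.909). The median log2 differences of the 67 were -0.03 in TPC-1 and 0.01 in B-CPAP, against 0.03 and 0.09 for all tested genes.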

How the data were processed

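Libraries were made from RNeasy Plus RNA with the TruSeq RNA Library Prep Kit v2, per the labels' protocols, 1 for each line and temperature. The kit does not mark strand, and none of the 8 genes shares exon bases with another gene. The authors deposited TPM for 58884 gene IDs, each column summing to 1000000. Per the submitters' processing notes they used FastQC, MultiQC, Trimmomatic 0.38, featureCounts 2.0.0 and GRCh38; which aligner and annotation they used is not stated there. Of the IDs, 58611 were found in GENCODE 29 (GRCh38), which gave coordinates, exon lengths and GC contents.

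TPM keeps no depth. TPM multiplied by exon length came in steps whose size was fitted for each library (134.0 to 173.1). Divided by that step, it gave near-whole numbers. For values up to 20, 90.8 to 92.2% lay within 0.02 of one, and between 20 and 200, 65.7 to 67.4%. Rounded, these served as the estimated reads behind exact 95% Poisson intervals of levels and binomial intervals of ratios. Read intervals and floors cover counting error only. Tests of counts were not made.

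The scale of analysis was log2(TPM + 1), which understates changes of low genes. The 14912 genes whose mean reached 1 TPM were fitted with limma 3.58.1 (R 4.3.3), two-sided, with an intensity trend and Benjamini-Hochberg adjustment over all of them at 0.05: 40 °C against 37 °C (blocked by line), and B-CPAP against TPC-1 with temperature as a block. With 1 library for each line and temperature, no spread between repeat cultures of a group could be measured. The p-values rest on how far the temperature difference varied between the lines, drawn towards the trend. On simulated data the fits called 89.6% of 2-fold changes between temperatures and 88% between lines. The simulation gave genes of like level the same spread, so it cannot show how the fits behave on these data. Named genes were all 8, and from each further list up to 3 genes by level and 2 by line difference; the tested protein-coding genes within 250 kb of PTGES; and the 5 genes of most like profile. The 8 genes, lists and tests were chosen with earlier results of these data known. Alternatives were other pseudocounts, filters and scalings, an adjustment for GC content, fits without the trend or block, fits without 1 library, and, added after seeing the data, protein-coding genes alone.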

Additional observations from a re-analysis of the deposited data

Results flagged for a closer look

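PTGS1 differed in direction between the lines: its log2(TPM + 1) difference between 40 °C and 37 °C came to 0.12 (TPC-1) and -0.16 (B-CPAP). It drew attention because each line has 1 library per temperature and the lines moved opposite ways. The difference was not tested, since no residual degree of freedom is left for it, and both counting intervals included 1.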

How the results depend on the processing

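Between temperatures limma called 0 genes, and 2 at a pseudocount of 5, 49 with libraries centred on the median, 867 at a mean TPM of at least 5 and 1350 with protein-coding genes alone. The other alternatives, those without 1 library among them, called 0 genes (0 to 0). The count of genes called between the lines (9349) fell to between 2911 and 5719 when 1 library was left out without a block: 3014 without TPC-1 at 37 °C, 2911 without TPC-1 at 40 °C, 5101 without B-CPAP at 37 °C and 5719 without B-CPAP at 40 °C. Genes 2-fold apart between temperatures numbered 519 (TPC-1) and 582 (B-CPAP), 987 and 1246 at a pseudocount of 0.1, 89 and 82 at a pseudocount of 5, and 18 and 137 with protein-coding genes alone. In B-CPAP the share of these that were higher was 71.1%, 51.3% after centring on the median, 53.6% after quantile normalization and 97.8% with protein-coding genes alone. The adjustment for GC content reversed PTGES2 in both lines (TPC-1 0.00983, B-CPAP 0.12) and PTGES in B-CPAP (0.0308); the cause was not tested. PLA2G4A stayed higher at 40 °C under every scaling and pseudocount tried, by 0.16 to 0.43 (TPC-1) and 0.50 to 0.99 (B-CPAP) on the log2 scale. The log2 difference of PTGES between lines ran from 6.23 to 7.74. Fits without 1 library have no block and mix the line difference into that of temperature: they gave PTGES between -3.88 and 3.44 and PTGES2 between -0.77 and 0.13 (log2). The adjusted p between temperatures ran from 0.0451 to 1 for PLA2G4A, from 0.0331 to 1 for PTGES2 and from 0.137 to 1 for PTGES. Replicates within a line could not be paired, since each line has 1 library per temperature. The main fit between temperatures, with the line as its only block, compares 40 °C with 37 °C within each line.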
